A study of Gossypium hirsutum with 9 samples.

Results

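The 200 most abundant transcripts of cultured cotton ovules are described here, ranked by average FPKM. FPKM scales the reads of a gene by its length and by a library-size term, so a level can be compared between genes of different length. The average was taken over all 9 libraries for each of the 75376 IDs that start with Gohir, and the 200 highest were kept. The members were thus chosen by their measured levels, which are given as a description. Differences between the glucose concentrations were tested for each member in a fit over the 50988 rows that reached an FPKM of 1 in 3 or more libraries. All 200 members were among the rows tested.

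Upland cotton (Gossypium hirsutum) carries the A and the D subgenome of a pair of ancestral species that hybridised. Most of its genes therefore exist as an A copy and a D copy, in many cases on chromosomes of the same number. Each cotton fibre is a single elongated cell of the outer layer of the ovule, and fertilised ovules in liquid culture form fibres while they live on the sugar of the medium. In an RNA library a small set of transcripts takes a large share of the reads.

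Ovules of strain TM-1 were cultured for 5 days on 50, 150 or 300 mM glucose, and total RNA from 3 libraries per concentration was sequenced. The groups share strain, tissue and culture time and differ, as far as the labels say, in the glucose concentration. The study's title places the work in fibre elongation and brassinosteroid, a steroid hormone of plants. The samples include no osmotic control, so glucose as a sugar, the osmolarity of the medium and a shift in tissue composition cannot be told apart, nor can fewer cells of a type and less RNA per cell.

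The libraries held 17803705 to 19140279 reads, recovered from the steps of the FPKM values, and 47826 to 48933 rows per library reached an FPKM of 1. The library-size term in the FPKM was 18418181 to 18840324 at 50 mM, against 18330981 to 19140279 recovered reads. At 300 mM it was 19552314 to 20001969, against 17803705 to 18585378 reads, and it exceeded the reads in each library. This makes the FPKM at 300 mM lower than a scaling to recovered reads would. Replicate 1 at 300 mM stood apart from its group. Across rows, which are not independent replicates, its correlation was 0.953 with replicate 2 and 0.945 with replicate 3 of its own group, and 0.929 to 0.958 with the 150 mM libraries. A member had a median of 5959 reads per library, and the lowest count was 7 reads. That depth makes counting error small for nearly every value of a member below, and the spread between libraries is the error that counts. None of the IDs matched the 99454 genes of the reference table, and names are not paired with the IDs in the tables, so no function is given to a member and the ovule label could not be checked against marker genes. Subgenome and chromosome were read from the ID, in which D04G marks a gene of chromosome 4 of the D subgenome. Start and end positions were not used here.

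The members' average FPKM ran from 318.4 to 8477, with a median of 530.7, and 36 members averaged more than 1000. The values around the limit were close. Gohir.A08G000169.v2.1 and Gohir.A07G067500.v2.1 were the last inside, at 319.9 and 318.4, and Gohir.D06G177800.v2.1 and Gohir.D11G002900.v2.1 the first outside, at 316.9 and 315.3. The members were short genes. Their median coding length was 514.5 bases (quartiles 394 and 911), against 1065 bases for the 45607 Gohir IDs with an average FPKM of at least 1. A length of 600 bases or less was found in 117 members, or 58.5% of them, against 24.5% of those 45607 IDs. FPKM divides reads by length, so short genes rank higher by FPKM than by reads, and 119 of the members were also among the 200 Gohir IDs with the most reads. How much the choice of measure adds to the short length of the members was not tested.

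Gohir.D04G121400.v2.1, of 237 bases, was the most abundant transcript. It reached an FPKM of 3846, 7328 and 3390.3 in the libraries at 50 mM, 9232, 8560.0 and 9106 at 150 mM, and 10839.7, 8399 and 15591 at 300 mM. All 6 libraries at the higher concentrations lay above all 3 at 50 mM, while those at 150 and 300 mM overlapped. Its level at 300 mM was higher than at 50 mM by 1.30 on the log2 scale (SE 0.309, limma adjusted p = 0.0111). At 150 mM it was higher than at 50 mM by 0.97 (SE 0.309, limma adjusted p = 0.0407). This second call was lost without replicate 1 or 3 at 50 mM and without any of the 3 libraries at 150 mM. It was also lost with no filter on low values and with replicate number added to the fit. The limma adjusted p-values were 0.0565 to 0.134.

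Gohir.A09G213654.v2.1, of 186 bases, ranked second, with an FPKM of 4851, 6632 and 5462 at 50 mM, 4719, 4603 and 5847 at 150 mM, and 4034, 3995 and 4269 at 300 mM. The libraries at 300 mM were the lowest, but no comparison of this ID passed the test (limma adjusted p of 0.0679 or more). Gohir.A05G170100.v2.1, of 999 bases, came next. It reached 2057, 3098 and 2300.5 at 50 mM, 4904, 4133 and 5906 at 150 mM, and 4984, 3099 and 3057 at 300 mM. Every library at 150 mM lay above the 3 at 50 mM, a change of 1.01 in log2 units (SE 0.244, limma adjusted p = 0.0129), and those at 300 mM spanned the gap. That call was lost without replicate 1 at 50 mM (limma adjusted p = 0.0532) or replicate 3 at 150 mM (0.0542).

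Of the 7 other members in the top 10, 5 had their highest group mean at 50 mM and passed the test in at least 1 comparison. Gohir.A07G189601.v2.1 had 3235, 3686 and 3079 at 50 mM, 2525, 2296 and 2396 at 150 mM, and 1304, 1928 and 1359 at 300 mM. Its 3 groups did not overlap, and the fall at 300 mM against 50 mM was -1.14 on the log2 scale (SE 0.174, limma adjusted p = 0.00127). Gohir.D10G116300.v2.1 had 2659.6, 3567 and 2984 at 50 mM, 1394, 1736 and 1411 at 150 mM, and 1267, 1485 and 1614 at 300 mM. Its level was lower at 150 mM than at 50 mM by a change of -1.02 in log2 units (SE 0.169, limma adjusted p = 0.00218), and the libraries at 150 and 300 mM overlapped. Gohir.D09G214700.v2.1 averaged 3075 ± 298 at 50 mM, 2039.5 ± 161 at 150 mM and 1616 ± 271 at 300 mM (SD, n = 3 each). It fell at 300 mM against 50 mM by 0.94 on the log2 scale (SE 0.16, limma adjusted p = 0.00223).

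Gohir.D10G155200.v2.1, of 594 bases, was the member of the top 10 that stood out at 300 mM. It reached 1295, 1694 and 1081 at 50 mM, 1007, 957 and 1235 at 150 mM, and 2494, 4293 and 4199 at 300 mM. The libraries at 300 mM lay above all 6 others, which overlapped. The log2 change was 1.75 at 300 against 150 mM (SE 0.246, limma adjusted p = 0.00451) and 1.41 at 300 against 50 mM (SE 0.246, limma adjusted p = 0.00246). Gohir.A02G039000.v2.1 was lowest at 150 mM, at 1486, 1811 and 1677, against 2967, 4552 and 2708 at 50 mM. Its libraries at 300 mM, at 1785, 4244 and 3290.5, overlapped both. The fall at 150 mM had a limma adjusted p of 0.0364, which rose to 0.0633 to 0.126 without any 1 of the 6 libraries at 50 and 150 mM other than replicate 3 at 50 mM, and to 0.0522 with no filter on low values. Gohir.D02G044966.v2.1 had 2684, 3247 and 2494 at 50 mM, 1209, 2042 and 1532 at 150 mM, and 1369, 3181 and 2907 at 300 mM. Its libraries at 150 mM lay below those at 50 mM, but no comparison passed the test (limma adjusted p of 0.0745 or more).

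The members held 16.6%, 18.6% and 16.5% of the total FPKM of the libraries at 50 mM, 14.4%, 14.6% and 15.2% at 150 mM, and 15.1%, 15.3% and 16.1% at 300 mM. The 3 libraries at 50 mM were above the 6 others, and replicate 2 at 50 mM was the highest of all. The means were 17.2% ± 1.22, 14.7% ± 0.418 and 15.5% ± 0.553 (SD, n = 3 each). As shares of recovered reads the means were 10.2% ± 0.676 at 50 mM, 8.58% ± 0.329 at 150 mM and 8.95% ± 0.385 at 300 mM, in the same order. No test is given, since the same levels chose the members.

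The head and the body of the list differed. The 10 most abundant IDs held 3.27% ± 0.578 of total FPKM at 50 mM, 3.20% ± 0.189 at 150 mM and 3.82% ± 0.352 at 300 mM. The libraries at 50 mM overlapped both other groups, and those at 300 mM lay above those at 150 mM. The members ranked 51 to 200 held 8.21% ± 0.133, 7.12% ± 0.196 and 7.02% ± 0.102 in the same order, and their libraries at 50 mM lay apart from the other 6. Among the next 200 IDs, ranked 201 to 400, the shares were 5.48% ± 0.10, 5.22% ± 0.136 and 4.93% ± 0.192. Gohir.D04G121400.v2.1 alone held 0.474% ± 0.202 at 50 mM, 0.919% ± 0.0668 at 150 mM and 1.24% ± 0.348 at 300 mM. Without it the remaining 199 members held 16.8% ± 1.02, 13.8% ± 0.442 and 14.3% ± 0.319.

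**Figure D1:**
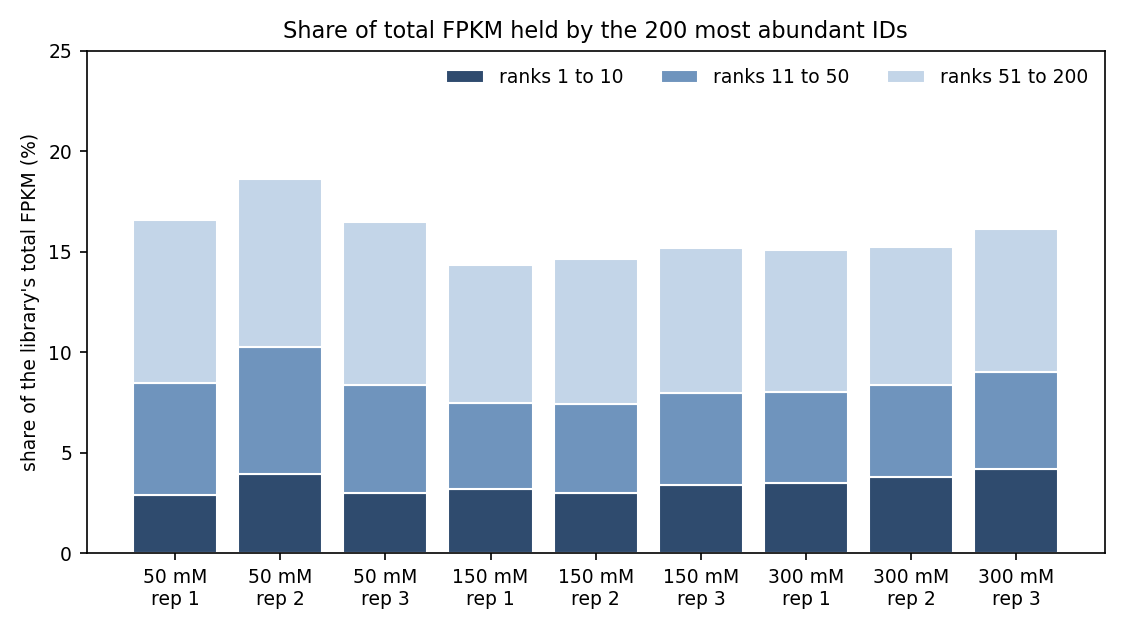
Share of each library's total FPKM (%) held by the 200 members, 1 bar per library in order of glucose concentration, stacked by rank in the average over all libraries. The bars end at 16.5% to 18.6% at 50 mM and at 14.4% to 16.1% at the higher concentrations, and the lightest band, ranks 51 to 200, shrinks from 50 to 150 mM.

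The first comparison set the libraries at 150 mM glucose against those at 50 mM. Of the 200 members, 110 (55%) passed the test, against 29.3% of all rows tested and 93 of the next 200 IDs. Most moved down. There were 39 members higher at 150 mM, against 16.0% of all rows, and 71 lower, against 13.3%. A change of at least 2-fold was called for 18 higher members (6.78% of all rows) and 43 lower members (5.27%). The median log2 change was -0.18 over the members and 0.02 over all rows, and the libraries of the groups did not overlap in 143 members (48.9% of all rows). The pooled SD between libraries on the log2 scale had a median of 0.233 in members, 0.213 in all rows and 0.195 in the next 200.

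The excess of falls depended on how the members were chosen. When the 200 were instead taken from the 300 mM libraries, which do not enter this comparison, 50 were higher and 52 lower, so that 49.0% of the calls were higher, against 35.5% for the members. The median log2 change of that set was -0.0089. It was -0.05 for the 200 IDs with the most recovered reads and -0.09 for the 200 with the highest average log2 level. Leaving out any 1 of the 6 libraries at 50 and 150 mM lowered the count to between 73, without replicate 2 at 50 mM, and 88. The share of all rows called fell alike, to between 20.2% and 24.8%.

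Gohir.A02G033200.v2.1, of 543 bases, had the largest fall at 150 mM. Its FPKM was 944, 896 and 703 at 50 mM, 33.5, 110.2 and 13.3 at 150 mM, and 23.0, 276 and 140.3 at 300 mM. All libraries at 50 mM were far above the rest, while those at 150 and 300 mM overlapped. The log2 change at 150 against 50 mM was -4.50 (SE 0.896, limma adjusted p = 0.00526). This member also had the widest spread within groups, with a pooled SD of 1.38 on the log2 scale.

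Gohir.D12G228800.v2.1, of 729 bases, was among the 10 most abundant IDs at 50 mM only. It had 2597, 3383 and 2119 at 50 mM, 231, 473 and 107 at 150 mM, and 158, 397 and 379 at 300 mM. The groups at 150 and 300 mM overlapped and both lay below the 50 mM libraries. The fall at 150 mM was -3.54 on the log2 scale (SE 0.514, limma adjusted p = 0.00116). Gohir.A06G004200.v2.1 behaved alike, at 769 ± 129, 109 ± 118 and 90.9 ± 46.6 in order of concentration (SD, n = 3 each), a fall of 3.35 on the log2 scale at 150 against 50 mM (SE 0.673, limma adjusted p = 0.00542). Gohir.D09G088800.v2.1, the longest of these falling members at 1752 bases, had 103, 91.6 and 206 at 150 mM, against 715, 1188 and 860.5 at 50 mM. Its log2 change was -2.85 (SE 0.363, limma adjusted p = 0.000665).

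The largest rise belonged to Gohir.D11G300400.v2.1, of 549 bases, which was nearly silent at 50 mM. Its FPKM was 0.682, 12.9 and 8.31 at 50 mM, 389, 279 and 444 at 150 mM, and 1409, 379 and 560.3 at 300 mM. The lowest value rests on 7 reads, and it is the reason why 199 of the 200 members, not all, had an FPKM of at least 1 in all 9 libraries. The log2 change was 6.14 at 150 against 50 mM (SE 0.802, limma adjusted p = 0.000736). Gohir.A11G292000.v2.1, which has the same length and lies on the A chromosome of the same number, had 21.6, 187 and 66.3 at 50 mM, 656, 578 and 797 at 150 mM, and 2316, 829 and 976 at 300 mM. In both IDs the 50 mM libraries were the lowest and replicate 1 at 300 mM the highest. The rise of the A ID at 150 against 50 mM was 3.36 (SE 0.662, limma adjusted p = 0.00494).

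Gohir.D07G126100.v2.1, of 333 bases, had 30.3, 117 and 36.0 at 50 mM, 444, 526 and 778 at 150 mM, and 2064, 667 and 1512 at 300 mM. No library at 50 mM reached those of the higher concentrations, and the log2 change at 150 mM was 3.47 (SE 0.535, limma adjusted p = 0.00153). Gohir.D04G134600.v2.1 and Gohir.A04G095000.v2.1 are another pair of equal length (768 bases). The D ID had 1563, 1827 and 2547 at 150 mM, against 140.0, 603 and 278 at 50 mM, a change of 2.76 in log2 units (SE 0.48, limma adjusted p = 0.00274). The A ID had 899.9, 1221 and 1329 at 150 mM, against 149, 458 and 317 at 50 mM, a change of 2.02 in log2 units (SE 0.394, limma adjusted p = 0.0047). In each of them the groups did not overlap.

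The second comparison set 300 against 150 mM, where fewer transcripts moved. The test was passed by 27 members (13.5%), against 6.11% of all rows and 34 of the next 200 IDs. Of these, 5 were higher at 300 mM (1.31% of all rows) and 22 lower (4.80%). A change of at least 2-fold was called for 3 higher (0.647%) and 14 lower members (2.99%). The median log2 change was -0.06 over the members and -0.0045 over all rows. The sign of the members' median turned under other scalings. It was 0.01 with equal total FPKM, 0.03 scaled to recovered reads and 0.03 with limma-voom, where all rows had medians of 0.06, 0.07 and 0.08. When the 200 were ranked by their lowest group mean, 5 were higher and 9 lower, with a median of -0.03. That rule leaves out IDs with a low mean at any concentration, and so IDs with a deep fall. When the 200 were instead taken from the libraries that do not enter this comparison, 6 were higher and 19 lower. The median log2 change of that set was -0.13. Groups did not overlap in 58 members, against 23.0% of all rows. The count of members called was 18 without replicate 2 or 3 at 150 mM or replicate 2 at 300 mM. The share of all rows called was then 3.43%, 4.17% and 3.02% in the order named. The count was 37 without replicate 1 at 300 mM, with 16 higher and 21 lower. The share of all rows called rose as well, to 8.63%, with 1327 higher and 3038 lower.

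Gohir.A10G150200.v2.1, of 363 bases, had the largest fall between 150 and 300 mM. Its FPKM was 1419, 612 and 856 at 50 mM, 488, 686 and 759 at 150 mM, and 133, 26.6 and 65.4 at 300 mM. The libraries at 50 and 150 mM overlapped and those at 300 mM lay below both. The log2 change was -3.35 at 300 against 150 mM (SE 0.512, limma adjusted p = 0.00622) and -3.87 at 300 against 50 mM (SE 0.512, limma adjusted p = 0.000632).

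Gohir.D07G048000.v2.1, of 663 bases, and Gohir.A07G043600.v2.1, of 657 bases, both fell between 150 and 300 mM. The D ID had 377, 334 and 408 at 50 mM, 647, 602 and 673 at 150 mM, and 255, 129 and 102 at 300 mM. The A ID had 545, 392 and 541 at 50 mM, 588, 613 and 642 at 150 mM, and 227, 129 and 93.2 at 300 mM. In both, the libraries at 300 mM were below all others, and replicate 1 was the highest of the 3. The log2 change at 300 against 150 mM was -2.09 for the D ID (SE 0.281, limma adjusted p = 0.00372) and -2.13 for the A ID (SE 0.281, limma adjusted p = 0.00356). Gohir.A08G109100.v2.1, of 249 bases, was high at 150 mM alone, with 323, 169 and 307 at 50 mM, 558, 852 and 727 at 150 mM, and 292, 175 and 109 at 300 mM. It fell by 1.98 on the log2 scale at 300 against 150 mM (SE 0.361, limma adjusted p = 0.0126).

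Among the 5 rising members, Gohir.A10G112100.v2.1 came second to Gohir.D10G155200.v2.1. It is 603 bases long and had 894, 1418 and 1265 at 50 mM, 657, 682 and 880.0 at 150 mM, and 1526, 2499 and 2216 at 300 mM. All 3 groups kept apart, with 150 mM the lowest and 300 mM the highest. The log2 change at 300 against 150 mM was 1.47 (SE 0.236, limma adjusted p = 0.00737). Gohir.A01G189900.v2.1 had 683, 1190.3 and 619 at 300 mM, against 384, 374 and 425 at 150 mM and 1031, 1163 and 1507 at 50 mM. The libraries at 150 mM were the lowest, and those at 300 and 50 mM overlapped. Its rise at 300 against 150 mM (limma adjusted p = 0.0408) was lost without replicate 1 or 2 at 50 mM, replicate 2 at 300 mM or any library at 150 mM. The limma adjusted p-values were then 0.0552 to 0.121. The call was also lost with no filter on low values (0.0619), with replicate number added to the fit (0.0741) and with only the 2 groups of the comparison (0.0733). Its fall at 150 against 50 mM was -1.63 (SE 0.244, limma adjusted p = 0.00134).

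The widest comparison, 300 against 50 mM, shares its libraries with the other comparisons. The test was passed by 113 members (56.5%), against 32.3% of all rows and 113 of the next 200 IDs. There were 32 members higher at 300 mM (16.0% of all rows) and 81 lower (16.3%). At least 2-fold changes were called for 17 higher (5.51%) and 48 lower members (6.91%), and the libraries did not overlap in 133 members (46.3%). The median log2 change was -0.35 over the members, -0.22 over the next 200 and 0.01 over all rows. It was -0.17 when the 200 were taken from the libraries at 150 mM, which do not enter this comparison, with 41 higher and 72 lower. It was -0.13 when they were ranked by their lowest group mean, with 26 higher and 61 lower. With limma-voom on the recovered reads the count was 50 higher and 77 lower, so that 39.4% of the calls were higher, against 28.3% here. That scaling set the median of all rows at 0.14, with 11385 of them higher and 6416 lower, against 8170 and 8286 here. Scaled to recovered reads, 43 members were higher and 72 lower, against 11486 and 6337 of all rows. The even split of all rows thus depended on the scaling. Without replicate 1 at 300 mM 30 members were higher and 71 lower, against 6440 and 6936 of all rows.

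Gohir.A02G017600.v2.1, of 876 bases, had the largest fall at 300 mM. Its FPKM was 1069, 1043 and 944 at 50 mM, 105, 386 and 89.3 at 150 mM, and 27.8, 28.3 and 71.1 at 300 mM. The 3 groups did not overlap, and each step in glucose had the lower level. The log2 change at 300 against 50 mM was -4.71 (SE 0.527, limma adjusted p = 0.000285). Gohir.D04G109000.v2.1, of 756 bases, had 1003, 612 and 738 at 50 mM, 126, 359 and 82.9 at 150 mM, and 42.3, 55.1 and 105 at 300 mM. Only the libraries at 150 and 300 mM overlapped. The change at 300 against 50 mM was -3.61 (SE 0.504, limma adjusted p = 0.000825). The rises at 300 against 50 mM were led by the IDs that led at 150 mM, Gohir.D11G300400.v2.1 at 7.01, Gohir.D07G126100.v2.1 at 4.65, Gohir.A11G292000.v2.1 at 4.24 and Gohir.D04G134600.v2.1 at 3.07 (limma adjusted p of 0.00143 or less).

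Over the 3 concentrations together, the F test was passed by 124 members, against 36.2% of all rows. By the order of their group means, 50 fell throughout (8.81% of all rows), 30 were lowest at 150 mM (7.30%), 23 were highest at 150 mM (12.1%) and 21 rose throughout (7.92%). In the pairwise tests 53 members were lower at both higher concentrations than at 50 mM with no call between 150 and 300 mM (9.20% of all rows), and 26 were higher in the same way (10.3%). A further 11 were lower at 300 mM than at both other concentrations, with no call between 150 and 50 mM (1.98%), and 62 passed no comparison (58.4%). As shares of the members these were 26.5%, 13%, 5.5% and 31%.

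**Figure D2:**
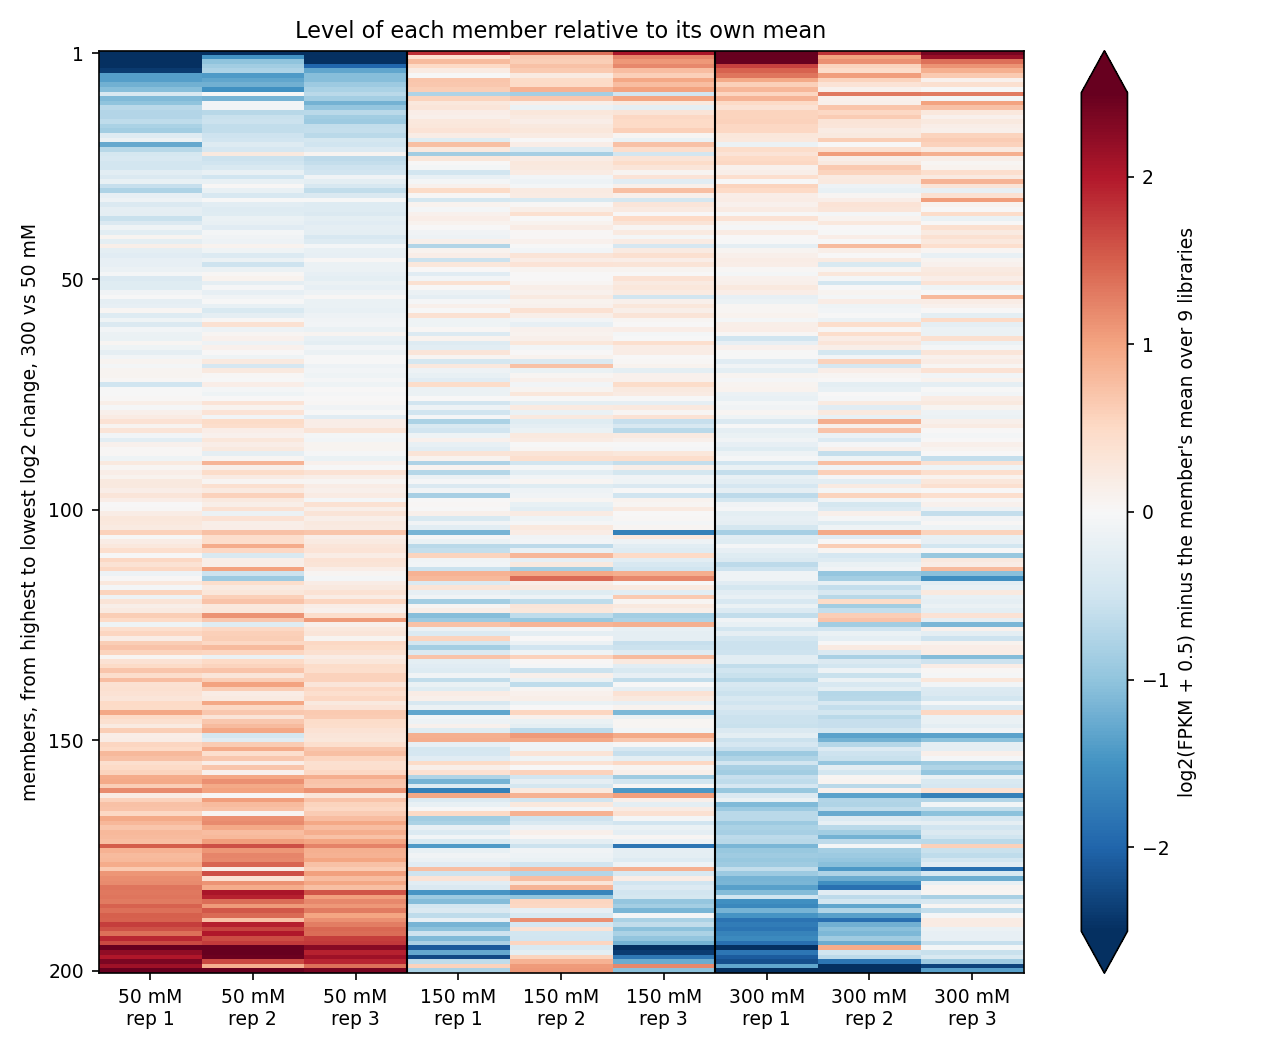
Level of each of the 200 members (1 line each) in the 9 libraries (columns), as log2(FPKM + 0.5) minus the member's own mean, with red above and blue below it, ordered by the log2 change at 300 against 50 mM. The lines at the bottom are red at 50 mM and blue at 300 mM, where 81 members were called lower, and the 32 called higher lie towards the top, with Gohir.D11G300400.v2.1 first.

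Within a concentration the same libraries were often the extreme ones. Among the 43 members at least 2-fold lower at 150 than at 50 mM, replicate 1 at 300 mM was the lowest of its group in 34, and replicate 2 at 150 mM was the highest of its group in 27. Over all rows replicate 1 at 300 mM was the lowest of its group in 33.6% and replicate 2 at 150 mM the highest in 34.5%, and over the 200 members the counts were 88 and 91. Among the 18 members at least 2-fold higher, replicate 1 at 300 mM was the highest of its group in 16 and replicate 3 at 150 mM in 15. For the 14 members at least 2-fold lower at 300 than at 150 mM, replicate 1 at 300 mM was the highest of its group in 13 and replicate 2 at 50 mM the lowest in 14. Over all rows replicate 1 at 300 mM was the highest in 35.7% and replicate 3 at 150 mM in 34.2%. Replicate 2 at 50 mM was the lowest in 35.4%. Over the 200 members these counts were 53, 91 and 50. The libraries at 300 mM did not enter the comparison that chose the first 2 of these sets. The sets were looked at after seeing the data, and these counts were not tested.

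Rank gives the same data in terms of place among all Gohir IDs. By the group means, 159 members were in the top 200 at 50 mM, 167 at 150 mM and 162 at 300 mM, and 116 were there at all 3. Another 56 were in the top 200 at 2 concentrations and 28 at 1, of which 20 at 50 mM, 5 at 150 mM and 3 at 300 mM. The median shift of a member was 57 places between 50 and 150 mM, 28 between 150 and 300 mM, and 60 between 50 and 300 mM. Between libraries of the same concentration the median shift was 13 at 50 mM, 18 at 150 mM and 27 at 300 mM, close to the shift between 150 and 300 mM. Group means vary less than single libraries, so these values are not on an equal footing.

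The very top kept few of its IDs. The lists of the 10 most abundant IDs at each concentration named 18 IDs in all, and 3 were in every list. Gohir.D04G121400.v2.1 ranked 2, 1 and 1 in order of concentration, Gohir.A09G213654.v2.1 ranked 1, 2 and 2, and Gohir.A10G150100.v2.1 ranked 4, 9 and 8. Each pair of lists shared 5 IDs. Gohir.D12G228800.v2.1 ranked 10 at 50 mM, 266 at 150 mM and 185 at 300 mM. In the other direction, Gohir.D04G134600.v2.1 ranked 220 at 50 mM, 8 at 150 mM and 6 at 300 mM, and Gohir.D10G155200.v2.1 ranked 35, 29 and 4.

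A place in the list did not require a high level at each concentration. At 50 mM 4 members were outside the top 1000, with Gohir.D11G300400.v2.1 at rank 25209, Gohir.D07G126100.v2.1 at 2771, Gohir.A11G292000.v2.1 at 1596 and Gohir.A08G000169.v2.1 at 1162. At 150 mM 3 members were outside, namely Gohir.A02G033200.v2.1 at 3365, Gohir.A06G004200.v2.1 at 1227 and Gohir.D03G144500.v2.1 at 1166. At 300 mM the 4 outside were Gohir.A02G017600.v2.1 at 4010, Gohir.D04G109000.v2.1 at 2204, Gohir.A10G150200.v2.1 at 1870 and Gohir.A06G004200.v2.1 at 1416. The rank of Gohir.A08G000169.v2.1 follows from an FPKM of 103, 109.7 and 129 at 50 mM, 433, 375 and 524 at 150 mM, and 517, 397 and 291 at 300 mM. Its rise at 150 against 50 mM was 1.95 (SE 0.212, limma adjusted p = 0.000333), and the libraries at 150 and 300 mM overlapped.

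**Figure D3:**
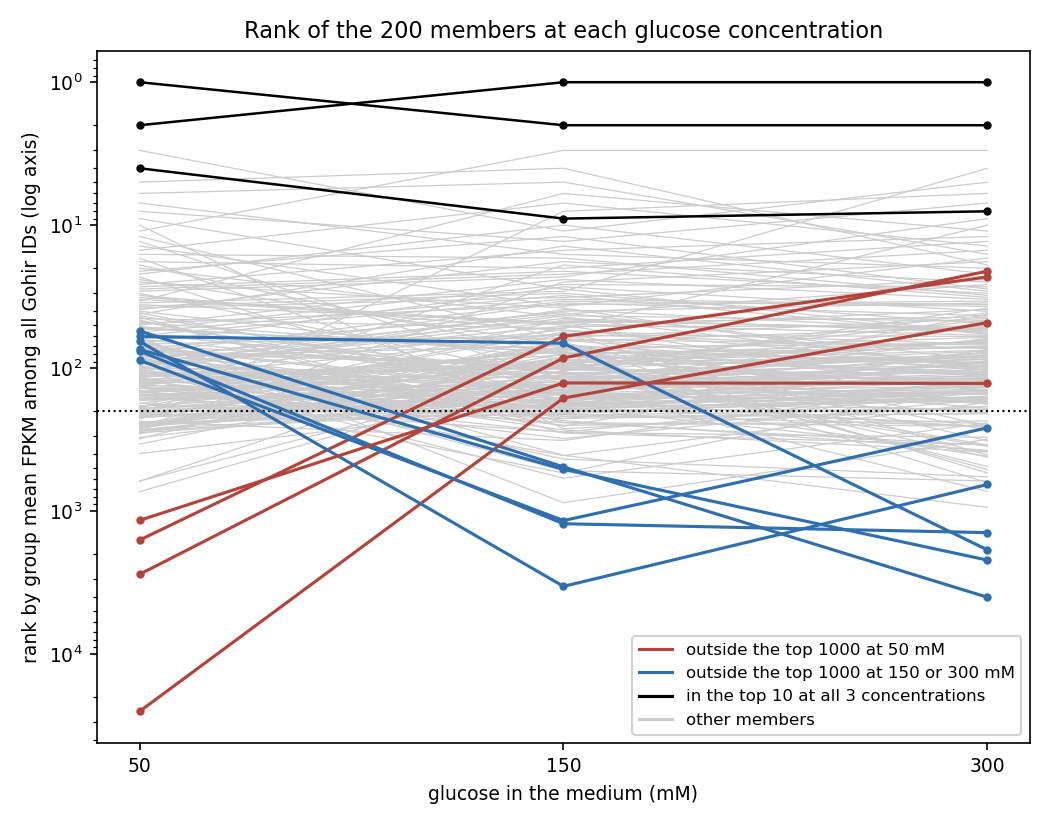
Rank of each member by group mean FPKM among all Gohir IDs (log axis, rank 1 at the top) at 50, 150 and 300 mM glucose, with a dotted line at rank 200. Red lines are the 4 members outside the top 1000 at 50 mM, blue lines those outside it at 150 or 300 mM, and black lines the 3 IDs in the top 10 at every concentration.

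Some members differed little between concentrations. Gohir.D01G205300.v2.1, of 1344 bases, had 361, 356 and 356 at 50 mM, 355, 349.9 and 353 at 150 mM, and 312, 347 and 402 at 300 mM. Its log2 change was -0.02 in each comparison with 50 mM (SE 0.121). Gohir.A01G216500.v2.1, of the same length on chromosome 1 of the A subgenome, had 305, 303 and 301 at 50 mM, 339, 349.5 and 350.4 at 150 mM, and 340.3, 347 and 392 at 300 mM. It had the smallest spread within groups of all members, with a pooled SD of 0.06 on the log2 scale, and passed no comparison. Gohir.D11G221800.v2.1 averaged 451 ± 28.8, 451 ± 48.7 and 458 ± 24.0 in order of concentration, and Gohir.D13G083000.v2.1 averaged 416 ± 7.86, 414 ± 61.8 and 422 ± 17.3 (SD, n = 3 each).

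The members divided nearly evenly between the subgenomes. The D subgenome held 96 members of its 38784 IDs and the A subgenome 104 of its 36118, which is 2.48 and 2.88 members per 1000 IDs. None of the 474 IDs that name neither subgenome was a member. The top 10 held 5 IDs from each, and the top 50 held 27 D and 23 A IDs. Median average FPKM was 560.1 for D and 520.5 for A members, and median length 507 and 541.5 bases in the same order. The glucose calls ran in the same direction on both. At 150 against 50 mM, 15 D members were higher and 36 lower, against 16.8% and 13.5% of all tested D IDs. On A, 24 members were higher and 35 lower, against 16.9% and 13.8% of the tested A IDs. At 300 against 150 mM, 1 D member was higher and 7 lower (1.43% and 5.07% of D IDs), and 4 A members were higher and 15 lower (1.26% and 5.12% of A IDs). At 300 against 50 mM, 13 D members were higher and 41 lower (16.7% each of D IDs), and 19 A members were higher and 40 lower (16.6% and 17.1% of A IDs). Whether the subgenomes differ in these counts was not tested.

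The summed FPKM of D members over A members gave a log2 ratio of 0.0014, 0.09 and -0.04 in the libraries at 50 mM, -0.05, -0.02 and -0.10 at 150 mM, and 0.06, 0.0020 and 0.22 at 300 mM. The libraries at 150 mM were the lowest apart from an overlap with replicate 3 at 50 mM, and replicate 3 at 300 mM was the highest. The means were 0.02 ± 0.064, -0.06 ± 0.038 and 0.10 ± 0.115 (SD, n = 3 each). Over all Gohir IDs they were 0.03 ± 0.015, 0.03 ± 0.005 and 0.06 ± 0.019. One ID set the balance. Without Gohir.D04G121400.v2.1 the ratio of the members was -0.06 ± 0.039 at 50 mM, -0.25 ± 0.047 at 150 mM and -0.14 ± 0.064 at 300 mM.

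Members were spread over all 13 pairs of chromosomes of the same number. Copies of a gene need not lie on chromosomes of the same number, so the counts and sums below are not a balance between copies. Chromosomes 2 held the most, with 15 on D and 15 on A, and the fewest were on chromosomes 6, with 2 on D and 4 on A. Chromosomes 4 had 10 on D and 5 on A, and chromosomes 5 had 9 on D and 14 on A. By FPKM the largest shares of the members' total lay on chromosomes 2 (14.5%), 4 (13.05%) and 5 (12.4%). On chromosomes 4 the D members summed to 10752 at 50 mM, 16957 at 150 mM and 19436 at 300 mM, and the A members to 3474, 4540 and 5460. Both sums were lowest at 50 mM. Gohir.D04G121400.v2.1 made up 4855, 8966 and 11610 of the D sum in order of concentration. Gohir.A04G082400.v2.1 and Gohir.A04G095000.v2.1 made up 1523 and 308 of the A sum at 50 mM, and 2271 and 1562 at 300 mM. Single IDs thus weigh heavily in these sums. On chromosomes 2 both sums were highest at 50 mM, at 13846, 9444 and 9387 for D and 15159, 9333 and 9975 for A in order of concentration. At 150 against 50 mM, 7 D members of chromosome 2 were lower and 2 higher, against 13.5% and 14.3% of its tested IDs. On the A chromosome 8 were lower and 1 higher, against 14.7% and 17.0%.

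The balance of D over A was also looked at on each pair of chromosomes of the same number. The ratios of the libraries did not overlap in at least 1 comparison for 10 of the 13 pairs, and in all 3 comparisons for 3, which were chromosomes 1, 8 and 11. The same counts were 9 and 3 for the next 200 IDs, so they are not particular to the members. On chromosomes 1 the log2 ratio was -0.75, -0.38 and -0.76 at 50 mM, -0.33, -0.29 and -0.27 at 150 mM, and -0.13, -0.26 and -0.12 at 300 mM. On chromosomes 8 the log2 ratio was 2.03, 2.56 and 1.86 at 50 mM, 0.43, 0.54 and 0.47 at 150 mM, and 0.73, 1.08 and 1.37 at 300 mM. No groups overlapped, and 150 mM was the lowest. There are only 4 A members on that chromosome, and all 4 were called higher at 150 than at 50 mM, against 283 of the 1881 tested IDs there. Of the 7 D members 3 were called lower and 1 higher, against 13.8% and 14.3%. Gohir.A08G109100.v2.1, which was among those 4, lost its call at 150 mM without replicate 2 at 50 mM (limma adjusted p = 0.0542), and Gohir.A08G093400.v2.1 lost it without that library or replicate 1 or 2 at 150 mM (0.0570 to 0.0692).

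On chromosomes 11 the ratio was 0.64, 0.80 and 0.59 at 50 mM, 0.0019, 0.04 and -0.08 at 150 mM, and -0.34, -0.29 and -0.16 at 300 mM, and again no groups overlapped. The D sum was 8793 at 50 mM, 5153 at 150 mM and 5099 at 300 mM, against A sums of 5473, 5190.2 and 6126. Gohir.D11G295000.v2.1, of 201 bases, contributed to the D side with 1972, 2953 and 1577 at 50 mM, 415, 393 and 568 at 150 mM, and 545, 492 and 441 at 300 mM. Its fall at 150 against 50 mM was -2.21 (SE 0.235, limma adjusted p = 0.000313). On chromosomes 5 the ratio was -0.27 ± 0.045 at 50 mM, -1.14 ± 0.142 at 150 mM and -0.87 ± 0.293 at 300 mM (SD, n = 3 each), where the 50 mM libraries stood apart. There Gohir.A05G170100.v2.1 made up 2485, 4981 and 3713 of A sums of 10818, 13838 and 11481 in order of concentration. These sums describe the chosen members and were not tested.

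**Figure D4:**
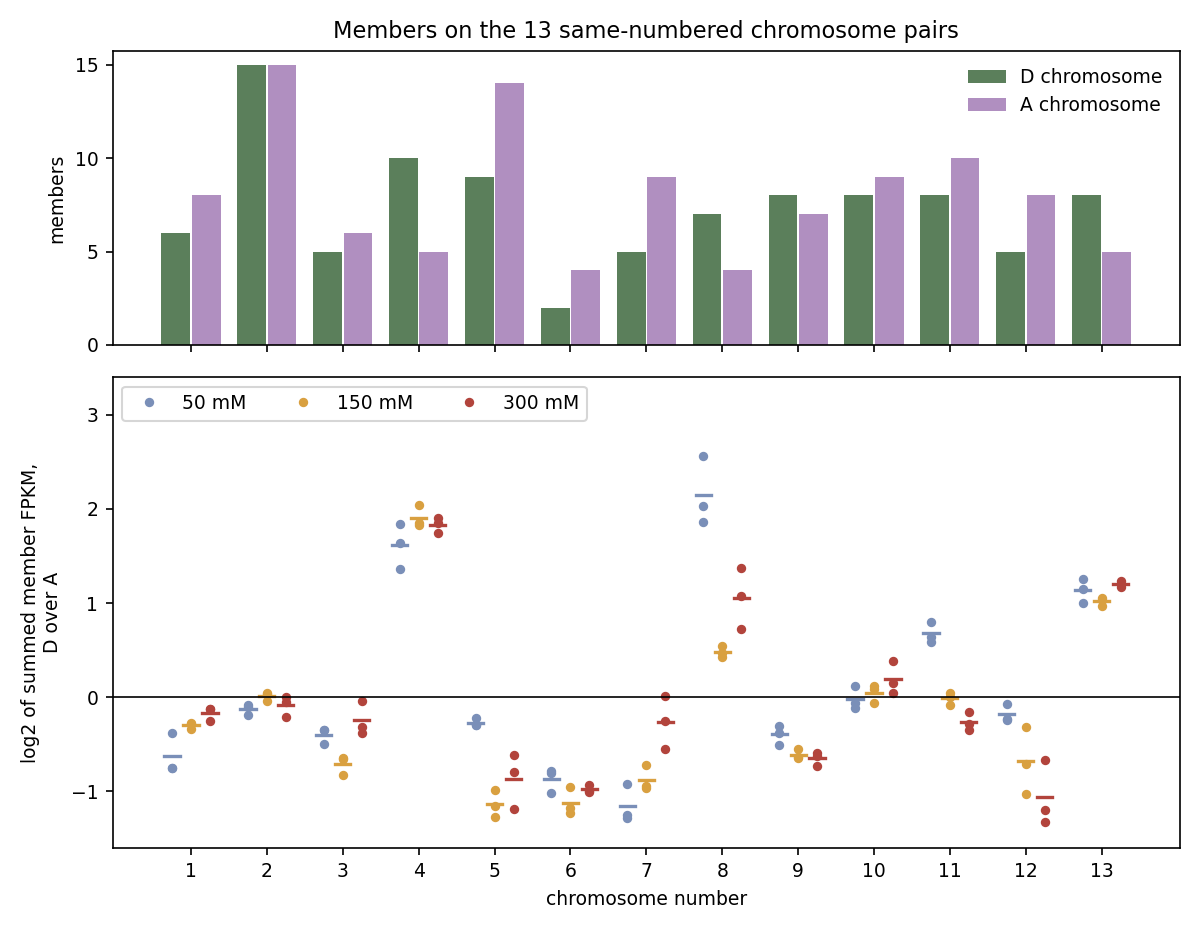
Upper panel, number of members on the D and the A chromosome of each number. Lower panel, log2 ratio of summed member FPKM, D over A, with 1 point per library and a short line at the mean of each concentration; the points of chromosomes 1, 8 and 11 form separate groups at 50, 150 and 300 mM.

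Equal coding length on chromosomes of the same number was used to look for copies of 1 gene, because no sequence or gene model of these IDs was used here. A pair needed a D and an A member of the same length with gene numbers within 5000 of each other. There were 14 such pairs, a count that rose to 35 when any gene number was allowed, a rule chosen after seeing the data. Equal length does not prove that 2 IDs are copies. Copies on chromosomes of different number are missed by either rule. Neighbouring members of 1068 and 156 bases lie on A03 and also on D02, and neighbouring members of 411 bases on A02 and also on D03. The sources used here do not say how reads shared by near-identical copies were assigned, so levels within a pair are uncertain. The D ID was higher on average in 5 of the 14 pairs and the A ID in 9, and in 9 pairs the same ID was higher in all 9 libraries. The median absolute log2 ratio was 0.31, and 1 pair differed at least 2-fold.

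That pair was Gohir.D05G173200.v2.1 and Gohir.A05G170100.v2.1, both 999 bases long and both among the 13 most abundant IDs. The D ID had 1711, 2217 and 1837 at 50 mM, 1254, 1400.3 and 1235 at 150 mM, and 1635, 1796 and 1895 at 300 mM. Its libraries at 150 mM were below all others, whereas those of the A ID, given above, were higher at 150 than at 50 mM. The D ID was lower at 150 than at 50 mM by a change of -0.56 in log2 units (SE 0.146, limma adjusted p = 0.0176), a call lost without replicate 2 at 50 mM or replicate 1 or 3 at 150 mM (0.0560 to 0.0683). It was the only one of the 14 pairs with calls in opposite directions. The difference between the changes of the 2 IDs was not tested.

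Other pairs had closer levels. The next largest ratio was that of Gohir.D05G012901.v2.1, at an average of 1098 FPKM, and Gohir.A05G011901.v2.1, at 1979, both of 237 bases. The smallest was that of Gohir.D09G100900.v2.1, at 516.2, and Gohir.A09G104200.v2.1, at 520.9, both of 450 bases. Gohir.D09G054400.v2.1 averaged 878 ± 32.2, 459 ± 72.3 and 547 ± 120.3 in order of concentration, and Gohir.A09G055500.v2.1, of the same 711 bases, 994 ± 74.5, 459 ± 86.8 and 573 ± 186 (SD, n = 3 each). Both fell at 150 against 50 mM, by 0.95 (SE 0.185, limma adjusted p = 0.00476) and by 1.13 (SE 0.233, limma adjusted p = 0.00627). Gohir.D09G082500.v2.1 and Gohir.A09G082600.v2.1, both of 195 bases, differed in level and passed no comparison. The D ID averaged 1070.0 ± 82.6, 935 ± 103 and 967 ± 145, and the A ID 537 ± 45.2, 534 ± 60.4 and 637 ± 80.0 in order of concentration. At 150 against 50 mM both IDs were called in the same direction in 5 of the 14 pairs, at 300 against 150 mM in 2, and at 300 against 50 mM in 6. With any gene number the counts were 15, 3 and 19 of 35 pairs.

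The most abundant ID is in a pair under the wider rule. Gohir.A04G082400.v2.1 has the 237 bases of Gohir.D04G121400.v2.1 and had 1436, 1572 and 1561 at 50 mM, 1164, 1205 and 1155 at 150 mM, and 1800.2, 1753 and 3261 at 300 mM. Its libraries at 150 mM were the lowest, and replicate 3 at 300 mM was the highest, as it was in the D ID. The rise at 300 against 150 mM (log2 change 0.89, SE 0.222, limma adjusted p = 0.0472) was lost when any library other than replicates 1 and 3 at 300 mM was left out, at adjusted p-values of 0.0547 to 0.132. The call was also lost with no filter on low values (0.0681), with replicate number added to the fit (0.0727) and with only the 2 groups of the comparison (0.111). On average the D ID had 8477 FPKM and the A ID 1656.

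A same-length ID of the other subgenome within 5000 gene numbers existed for 74 members, whether or not it was a member itself. In 28 of these cases it was a member, and in 46 it was not. The window can pass over a member of equal length with a more distant number. Gohir.A01G104100.v2.1, at 809 FPKM, was matched to Gohir.D01G103300.v2.1, at 106, while the wider rule pairs it with Gohir.D01G089300.v2.1, at 737. The matches are therefore not shown to be copies, and ratios to them are not differences between copies. The members stood at a median of 6.81 times the level of those 46 partners, whose median rank was 1496.5, and the choice of members for high levels fixes that direction. Among them, Gohir.A09G213654.v2.1 averaged 4935 FPKM and Gohir.D09G217800.v2.1, also of 186 bases, 0.247. Larger ratios were found for Gohir.A12G125600.v2.1, at 467 against 0.0112 for Gohir.D12G123033.v2.1, and Gohir.D12G033300.v2.1, at 433 against 0.0114 for Gohir.A12G035100.v2.1, IDs named after their values were seen. Partners at such low levels rest on very few reads. Their recovered length, and with it the match, is uncertain, and so is the size of these ratios.

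Some members lie beside each other. With members counted as neighbours when their gene numbers differ by at most 500, a description chosen after seeing the data, there were 13 runs with 28 members, and in 7 runs all members had the same length. On chromosomes 2, Gohir.D02G002700.v2.1, Gohir.D02G002800.v2.1, Gohir.A02G002400.v2.1 and Gohir.A02G002500.v2.1 are all 447 bases long. Their levels descended together. Gohir.D02G002800.v2.1 had 1172, 1379 and 1196 at 50 mM, 563, 602 and 551 at 150 mM, and 333, 358 and 438 at 300 mM. Gohir.A02G002400.v2.1 had 929, 1248 and 987 at 50 mM, 509, 495 and 455 at 150 mM, and 291, 287 and 346 at 300 mM. In each of the 4 IDs the 3 groups did not overlap. At 300 against 50 mM their log2 changes were -1.78, -1.73, -1.77 and -1.44 in the order named, with limma adjusted p-values of 0.000129 or less.

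On chromosomes 10, 5 neighbouring members are 363 bases long, 3 on D and 2 on A, and they did not behave alike. Gohir.D10G116200.v2.1 had 2127, 2014 and 1484 at 50 mM, 482, 579.7 and 732 at 150 mM, and 270.1, 292 and 732 at 300 mM. It fell at 300 against 50 mM by 2.26 on the log2 scale (SE 0.352, limma adjusted p = 0.00141), while its neighbour Gohir.D10G116400.v2.1 had 501, 567 and 457 at 50 mM, 442, 429 and 404 at 150 mM, and 408, 542 and 618 at 300 mM and passed no comparison. On the A chromosome, Gohir.A10G150100.v2.1 had 3389.6, 3619.5 and 3206 at 50 mM, 1669, 2231 and 2026 at 150 mM, and 2211, 2641 and 2514 at 300 mM. Its libraries at 150 and 300 mM overlapped, whereas those of Gohir.A10G150200.v2.1 at 300 mM lay far below 150 mM, as given above. The change of Gohir.A10G150100.v2.1 at 150 against 50 mM was -0.79 (SE 0.155, limma adjusted p = 0.00474). Reads shared within such a run could be split between its members.

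**Figure D5:**
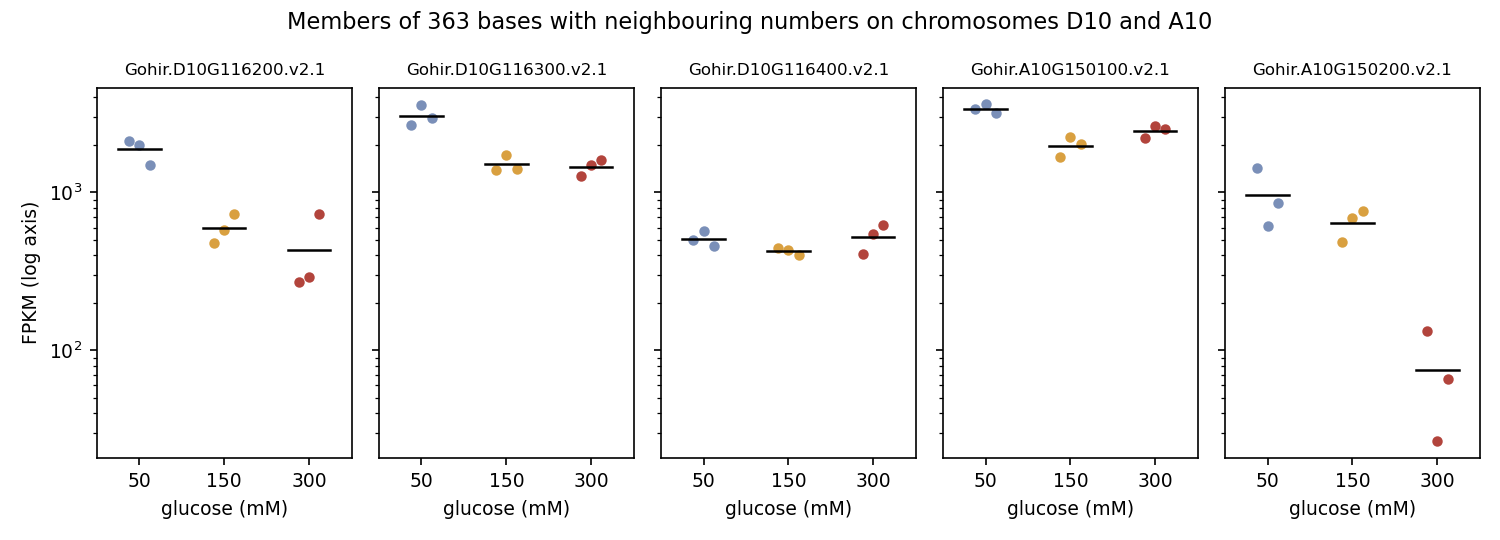
FPKM (log axis) of the 5 members of 363 bases with neighbouring gene numbers on chromosomes D10 (left) and A10 (right) at 50, 150 and 300 mM glucose, with 1 point per library and a line at each mean. Gohir.A10G150200.v2.1 drops to 26.6 to 133 at 300 mM, while Gohir.D10G116400.v2.1 stays between 404 and 618 in all 9 libraries.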

How the data were processed

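The authors deposited FPKM values, 80970 rows for each of 9 libraries. HISAT2 and featureCounts 1.5.0-p3 are named per the submitters' processing notes. Build, gene models and strand setting were not given in the sources used here. Whole reads and coding lengths were recovered from the FPKM steps for all 68279 rows above 0 (tolerance 0.001 reads). The labels name no separate cultures, so p-values speak for the spread among these libraries, which may be technical, and intervals from read numbers would cover counting error only.

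log2(FPKM + 0.5) was fitted with limma 3.58.1 (trend and robust, R 4.3.3, statmod 1.5.0) over all 9 libraries with glucose as the only term, on rows that reached an FPKM of 1 in 3 or more libraries. The fit was first run on simulated reads, drawn independently for each library and with few changed rows. That run does not show how the fit behaves at the spread and the share of changed rows of these data. Two-sided p-values were adjusted over all 50988 rows after Benjamini and Hochberg and called below 0.05. A change refers to log2(FPKM + 0.5), where the added constant shrinks it for low genes. The members and lists were chosen with earlier results of these data known. Named were the top 10, the 4 largest calls in each direction and comparison, the steadiest members, those around the limit or outside the top 1000, pairs of largest and smallest ratio and the extremes of spread; others were chosen after their values were seen.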

Additional observations from a re-analysis of the deposited data

Results flagged for a closer look

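The 5594 rows outside the Gohir naming did not enter the ranking. One of them, a locus of 944 bases, had an average FPKM of 532.39, above the level of the last member and at rank 101 among all rows, and it was the only such row above it. Its FPKM was 159.6, 258.1 and 170.0 at 50 mM, 495.3, 401.2 and 594.2 at 150 mM, and 1013, 961 and 739 at 300 mM. The 3 groups did not overlap. The log2 change was 2.22 at 300 against 50 mM (SE 0.222, limma adjusted p = 0.000171) and 1.36 at 150 against 50 mM (SE 0.222, limma adjusted p = 0.00205). At 300 against 150 mM it was 0.87 (SE 0.222, limma adjusted p = 0.0512), past no threshold.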

How the results depend on the processing

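With 1 library left out, members called ranged from 73 to 116 for 150 against 50 mM, 18 to 37 for 300 against 150 mM, 91 to 112 for 300 against 50 mM and 99 to 130 in the F test. The share of all rows called ranged from 20.2% to 31.4%, 3.02% to 8.63% and 23.0% to 32.2% in the 3 comparisons. The members' share of total FPKM differed by -2.88 to -1.81 points (150 minus 50 mM), 0.45 to 0.99 (300 minus 150 mM) and -2.12 to -1.04 (300 minus 50 mM). Members in the top 200 at all 3 concentrations numbered 112 to 117. The differences in the log2 ratio of D over A were -0.10 to -0.04, 0.09 to 0.20 and 0.02 to 0.13 in the same order. Summed over recovered reads, that ratio differed by -0.17 for 150 minus 50 mM and, with its sign changed, by -0.025 for 300 minus 50 mM, and the share by -1.65 points for 150 minus 50 mM. At an adjusted p under 0.01, 64 members were called at 150 against 50 mM (15.3% of all rows) and 14 at 300 against 150 mM (1.96%). Members ranked by their lowest group mean also gave 14 at 300 against 150 mM, 5 higher and 9 lower, against 5 and 22. Those taken from the libraries at 50 mM gave 6 higher and 19 lower there. Taking 100 members gave 53, 11 and 60 calls in the 3 comparisons, 63 in the F test and 53 inside the limit throughout, and taking 400 gave 203, 61, 226, 239 and 231, because fewer or more IDs were counted. Same-length pairs numbered 35 with any gene number, against 14.

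Calls present in each fit with 1 library left out were 69 of 110, 17 of 27 and 86 of 113. Deviations of same-numbered libraries correlated at -0.27 to 0.10, and those of differently numbered libraries of different groups at -0.25 to 0.24. No pairing by number was seen, but this check cannot tell whether the numbers pair the libraries. With a replicate block the calls were 30 higher and 66 lower, 2 and 17, and 29 and 77, and no member changed sign. The share of all rows called was 25.4%, 4.21% and 28.2% in the same order. With no filter on low values the 300 against 150 mM calls were 2 higher and 22 lower, with 3.65% of all rows called. Among 45 named members, 62 of the combinations of member and comparison were called and 73 were not. Under 22 other settings the called ones kept the call in 1226 values and lost it in 138, the others gained one in 54 and stayed uncalled in 1552, and 0 reversed. FPKM depth limits few members, but copies that share reads cannot be separated.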
